A study of Homo sapiens with 6 samples.

Results

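The genes described here encode the SLC25 family of mitochondrial carriers, measured in H295R cells after CX-4945 or its solvent. Members were the array rows that the platform's annotation names with exactly 1 symbol of the form SLC25A followed by a number, or UCP1, UCP2 or UCP3, with the brightest row standing for a gene that has several. This rule uses no treatment difference and gave 47 of the 33616 genes measured. SLC25A3, the phosphate carrier, and SLC25A15, the mitochondrial ornithine carrier, were on rows that carry several symbols and were not taken.

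H295R is an established human adrenocortical carcinoma line that makes steroids. Cells of this line received CX-4945 at 5 µM for 24 h or DMSO alone for 24 h, and total RNA of 3 samples per group was hybridised to 1 array each. CX-4945, also called silmitasertib, is an inhibitor of CK2 that acts on CLK kinases too, and the study compared gene expression between both exposures. The labels do not state whether replicates were grown separately, so that p-values cover the spread between these 6 samples, part or all of which may be technical.

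Carriers of this family span the inner mitochondrial membrane, which metabolites and nucleotides cannot cross unaided. Most exchange one solute for another, for example ADP for ATP or citrate for malate, and so link the tricarboxylic acid cycle, the respiratory chain and matrix enzymes to the cytosol. Steroid-making cells use mitochondria both for ATP and for the first step from cholesterol, whose NADPH depends in part on carboxylates moving in and out of the matrix. A few members lie elsewhere: SLC25A17 is peroxisomal and SLC25A46 sits in the outer mitochondrial membrane.

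Values are intensities on the linear scale deposited by the authors, and each difference is log2 CX-4945 less log2 DMSO ± SE, from a limma fit over all genes (n = 3 arrays per group), with p-values adjusted over all genes and a threshold of 0.05. Array medians lay between 40.7 and 43.1 for DMSO and between 45.8 and 46.5 for CX-4945. CX-4945 replicate 2 correlated less with the other treated arrays (r = 0.988 and 0.990 across genes) than those did with each other (0.994). Of the 11 adrenocortical markers all were measured, and MC2R and INHA lay below background in both groups. The summed intensity ran from 549377 to 613791 on DMSO arrays and from 298873 to 390322 on treated arrays. Most of each sum came from DLK1 and SCARB1. Lower markers were CYP11A1 (-6.33), CYP17A1 (-4.69), HSD3B2 (-2.05) and SCARB1 (-1.94), and also NR5A1 (-1.77), STAR (-1.37) and MRAP (-0.74). CYP21A2 was higher (0.83), and DLK1 did not pass (-0.01). Of 11 markers of other cell types 10 were measured, 8 of them below background in both groups, and their DMSO sums lay between 2242 and 3316, those with CX-4945 between 1620 and 3424. The markers above background were COL1A1, which gave most of each sum (2814, 1819 and 2185 on DMSO arrays), and CD3E. The part of these marker levels in the results below was not tested. Background here is a log2 intensity of 6.38, the 95th percentile over 400 olfactory receptor genes, and 10 of the 47 carriers lay below it in both groups.

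With CX-4945, 5 of 47 carriers were higher and 14 lower, and 28 did not pass the threshold. The highest rises were those of SLC25A26, which brings S-adenosylmethionine into the matrix (2.82-fold), and SLC25A25, a calcium-regulated ATP-Mg/phosphate carrier (2.69-fold). The deepest fall was that of another ATP-Mg/phosphate carrier, SLC25A23 (4.54-fold), followed by SLC25A10, the dicarboxylate carrier (3.51-fold). Their treated means lay near the background level (log2 intensity 6.46 and 6.54). At least 2-fold differences were called for 2 higher and 9 lower carriers (23.4% of 47), where all genes gave 4.34% higher, 7.01% lower and 11.4% in either direction, and protein-coding genes 17.4%. Among genes above background in at least 1 group the share was 29.7% of 37 carriers and 26.6% of protein-coding genes, so this count too is near that of other genes of similar detection. Such a difference in RNA from whole cultures does not tell fewer cells with the transcript from less of it per cell.

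These counts stand against a comparison in which many genes moved. Over all 33616 genes 22.8% were called, 10.3% higher and 12.5% lower, and over protein-coding genes 32.2%, of which 11.9% were higher and 20.3% lower. Of the 47 carriers 40.4% were called, 10.6% higher and 29.8% lower. Among protein-coding genes above background in at least 1 group, 47.4% were called (17.5% higher, 29.9% lower), and of the 37 carriers above it 43.2% (10.8% higher, 32.4% lower). The number of calls is therefore near that of other genes of similar detection and is not a result about the family. The median log2 difference was -0.20 over the carriers, 0.02 over all genes and -0.07 over protein-coding genes. The balance over all genes depends on scaling: rises made up 45.3% of the calls on the deposited values, 33.2% once arrays were quantile normalized and 32.4% once array medians were set equal, and the median of all genes moved to -0.09 and -0.11. Under those scalings the carrier median was -0.31 and -0.34, 5 carriers were higher, and 16 and 18 lower. All 3 treated arrays lay on one side of all 3 DMSO arrays in 26 carriers (55.3%; 5 above, 21 below), compared with 36% of all genes (17.6% above, 18.4% below) and 45.1% of protein-coding genes. Among those above background in at least 1 group it was 56.8% of carriers and 60.8% of protein-coding genes.

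**Figure D1:**
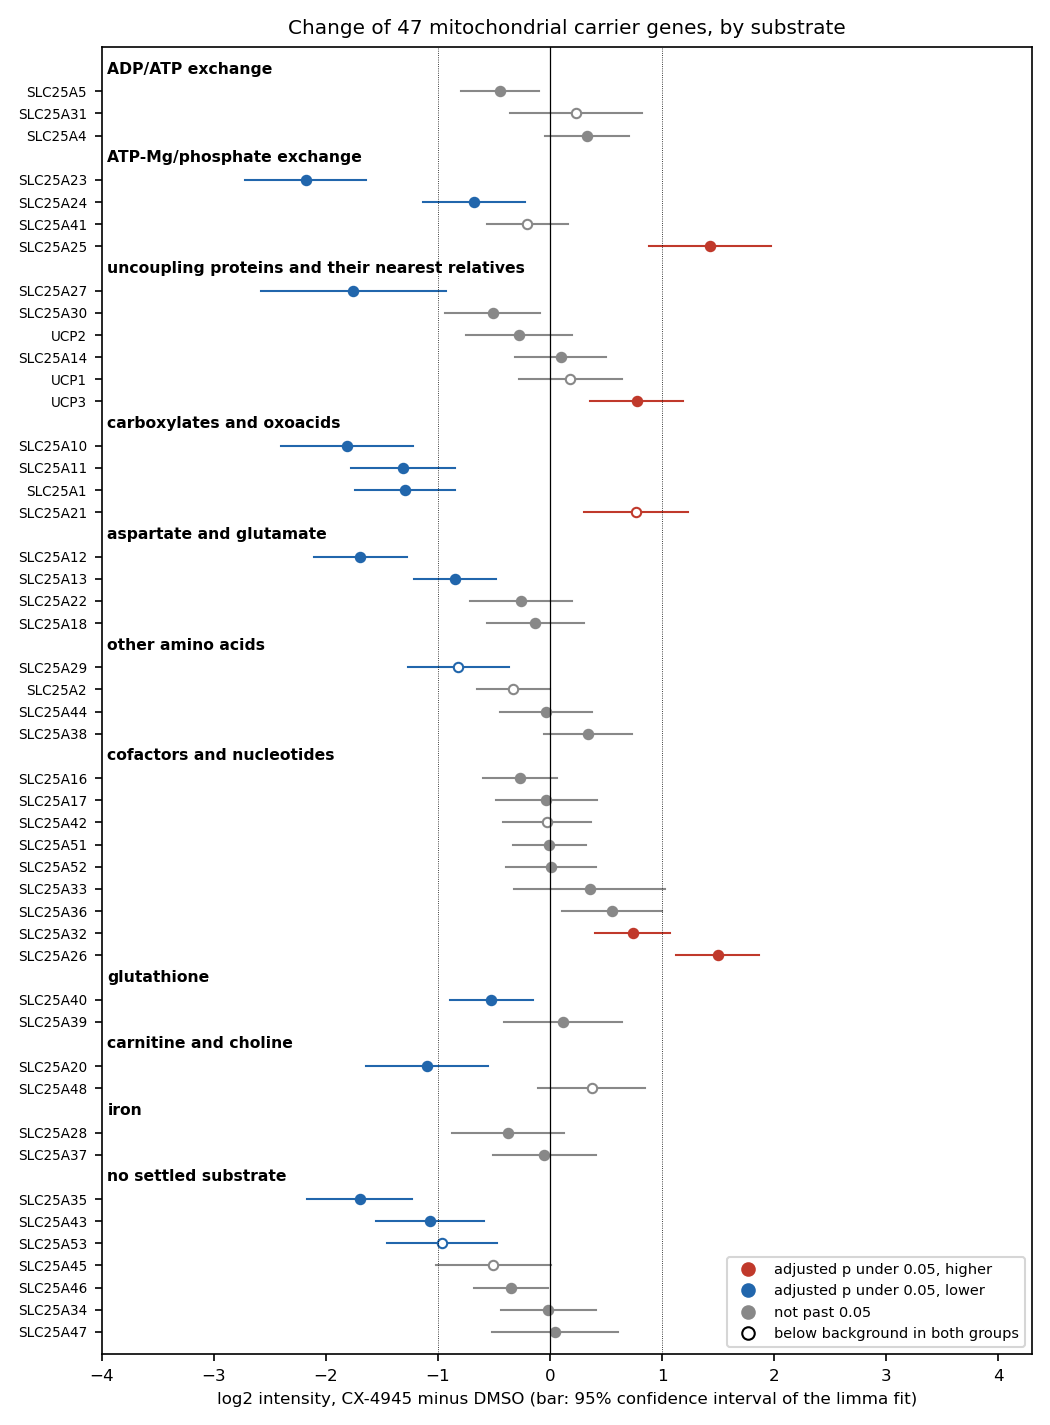
Log2 difference between CX-4945 and DMSO for each of the 47 carrier genes, grouped by the solute carried. Points are estimates of the limma fit, bars their 95% confidence intervals, red and blue points passed an adjusted p of 0.05, and open points lay below background in both groups; 3 of 4 carriers of carboxylates lie left of -1, while the carriers of S-adenosylmethionine (SLC25A26) and folate (SLC25A32) lie right of 0.

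Carriers of carboxylates were lower in 3 of 4 cases, each by more than 2-fold, and the fourth was higher. SLC25A1, which exports citrate for lipid and sterol synthesis in exchange for malate, had intensities of 988.3, 1061 and 742.7 in DMSO and 322.5, 430.1 and 381.8 in CX-4945. No treated array reached the lowest DMSO array, and the difference was -1.29 ± 0.21 (adjusted p = 5.13e-04). SLC25A10, which exchanges malate or succinate for phosphate, gave 366.7, 412.3 and 228.8 in DMSO and 88.8, 124.8 and 72.5 in CX-4945. Its groups were also apart (-1.81 ± 0.27, adjusted p = 3.28e-04), and its lowest treated array lay under the background level.

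SLC25A11, the oxoglutarate-malate carrier of the malate-aspartate shuttle, gave 4184, 5225 and 3572 in DMSO and 1565, 2297 and 1413 in CX-4945. This was a difference of -1.31 ± 0.21 (adjusted p = 6.16e-04) with no overlap, and replicate 2 was the highest array of either group. SLC25A21, which carries oxoadipate and related oxodicarboxylates, went the other way (0.77 ± 0.21), but its intensities, 29.5 to 35.2 on DMSO arrays and 42.9 to 68.7 on treated arrays, were all below background. Its call was lost without DMSO replicate 1, without DMSO replicate 3 and without CX-4945 replicate 2 (adjusted p up to 0.106 over 15 alternatives).

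Both aspartate-glutamate carriers, which complete the malate-aspartate shuttle, were lower. SLC25A12 (aralar), the form known from brain and muscle, gave 1546, 1862 and 1662 in DMSO and 592.8, 426.5 and 561.1 in CX-4945. Every treated array was below every DMSO array (-1.69 ± 0.19, adjusted p = 3.32e-05). SLC25A13 (citrin), known from liver, gave 5143, 6142 and 5271 in DMSO and 2599, 3505 and 3144 in CX-4945. It differed by -0.85 ± 0.17 (adjusted p = 0.00242), again without overlap. The glutamate carriers SLC25A18 (-0.13 ± 0.20) and SLC25A22 (-0.26 ± 0.21) did not pass and their groups overlapped.

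The ATP-Mg/phosphate carriers, which set the size of the adenine nucleotide pool in the matrix, went in both directions. SLC25A23 had intensities of 418.7, 461.9 and 325.8 in DMSO and 93.6, 114.0 and 63.3 in CX-4945. The groups lay far apart (-2.18 ± 0.25, adjusted p = 3.64e-05), and replicate 3 was the lowest array in each. In CX-4945 that array lay under the background level and the group mean was near it, so the size of this fall is uncertain. SLC25A24 was lower by a smaller step (-0.68 ± 0.21, adjusted p = 0.0340), from 725.6, 923.4 and 825.2 to 576.5, 397.0 and 591.9. That call was lost without any one of the DMSO replicates or without CX-4945 replicate 2, with adjusted p up to 0.177 over its alternatives.

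SLC25A25 rose from 218.9, 274.0 and 165.3 in DMSO to 426.1, 670.2 and 679.0 in CX-4945. The lowest treated array lay above the highest DMSO array (1.43 ± 0.25, adjusted p = 0.00101). A second row of SLC25A25 was below background in both groups (mean log2 intensity 4.58 and 4.79) and differed by 0.20, so with the mean of both rows the difference was 0.82. The antisense gene SLC25A25-AS1 differed by -0.23 and did not pass (adjusted p = 0.485). SLC25A41, the short member of this group without calcium-binding domains, was below background in both groups (-0.20 ± 0.17).

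Carriers of cofactors and nucleotides had 2 rises and no fall among 9. SLC25A26 gave 1473, 1392 and 1521 in DMSO and 4377, 4632 and 3440 in CX-4945. DMSO arrays were close together and treated arrays all higher (1.49 ± 0.17, adjusted p = 3.68e-05). The gene had 7 rows, 6 of them dimmer, and the identifiers of these 6 mark them as unmapped. All 7 rows were higher with CX-4945, by 0.34 to 2.23, but whether the unmapped rows read this gene alone was not tested. When every row of the table was tested together, 3 of them passed. The row at 2.23 was below background in DMSO (mean log2 intensity 5.67). With the mean of all 7 rows the difference was 0.99.

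SLC25A32, the folate carrier, which also moves FAD, gave 5352, 6006 and 4575 in DMSO and 8114, 9047 and 9281 in CX-4945. This is a rise without overlap (0.74 ± 0.15, adjusted p = 0.00358). Of the pyrimidine nucleotide carriers, SLC25A36 differed by 0.55 ± 0.20 and passed only in some alternatives: without CX-4945 replicate 2, the one treated array (2580) that fell within the DMSO range of 2104 to 2762, the difference was 0.77. SLC25A33 varied most among treated arrays in this group of carriers, from 253.7 to 714.7, and differed by 0.35 ± 0.31. The putative coenzyme A carriers SLC25A16 (-0.27) and SLC25A42 (-0.03) did not pass, nor did the peroxisomal SLC25A17 (-0.03). The NAD carrier SLC25A51 and its close relative SLC25A52 differed by -0.01 and 0.01; because their sequences are very similar, their rows may share signal.

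**Figure D2:**
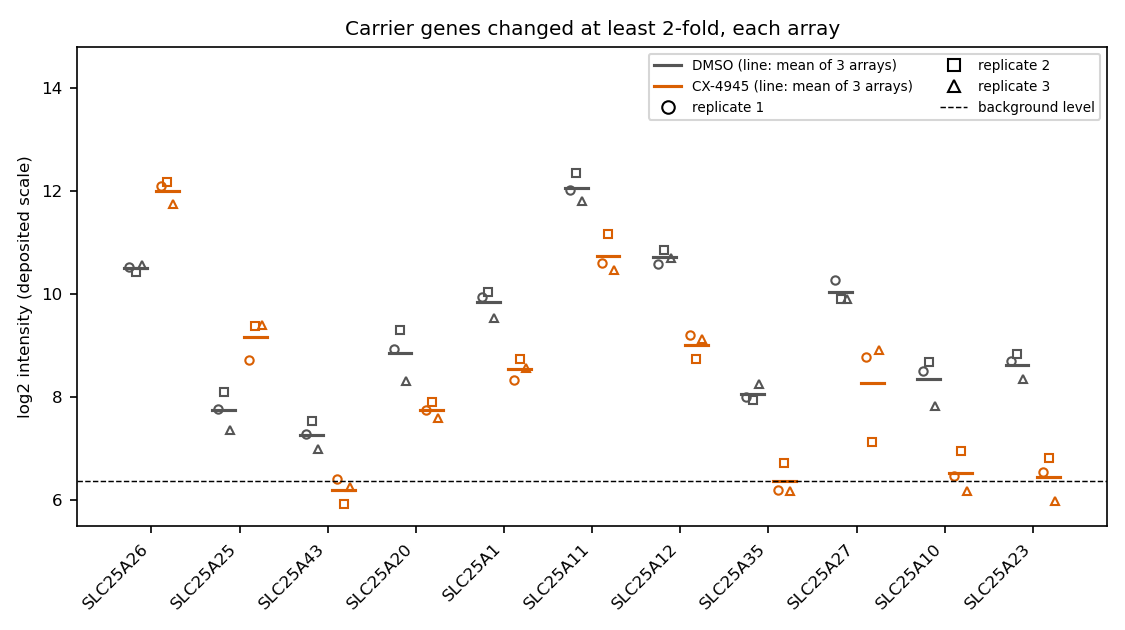
Log2 intensity on each of the 6 arrays for the 11 carriers called with at least a 2-fold difference. Symbols are replicates, short lines group means and the dashed line the background level of 6.38; in each gene all treated arrays lie on one side of all DMSO arrays, and CX-4945 replicate 2 of SLC25A27 lies apart from the other treated arrays.

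The promoters of 4 of these genes are shown because they belong to the highest rises and to the shuttle carriers that fell. They are the 100 bases before the transcript start, 5′ to 3′ on the gene's strand, from RefSeq on GRCh38.p14. Capitals mark letters that match any of the 6 motifs described below.
SLC25A26 (chr3:66220642-66220741, plus strand): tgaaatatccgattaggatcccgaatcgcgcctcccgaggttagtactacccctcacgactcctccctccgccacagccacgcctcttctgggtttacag
SLC25A25 (chr9:128098407-128098506, plus strand): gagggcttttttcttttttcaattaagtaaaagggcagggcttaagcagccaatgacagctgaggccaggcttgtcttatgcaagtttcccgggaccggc
SLC25A11 (chr17:4940047-4940146, minus strand): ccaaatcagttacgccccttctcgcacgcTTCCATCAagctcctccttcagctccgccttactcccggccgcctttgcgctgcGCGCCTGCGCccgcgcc
SLC25A12 (chr2:171894245-171894344, minus strand): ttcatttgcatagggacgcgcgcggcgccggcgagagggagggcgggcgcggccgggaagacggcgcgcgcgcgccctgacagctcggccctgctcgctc

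Promoter sequence, 250 bases before to 50 after the start, was matched for 40 of the 47 carriers and 15843 protein-coding genes, and 6 motifs were searched on both strands. In the carriers no 2 matches overlapped. TGATGNAA, the core of the element bound by ATF4 with C/EBP partners, was in 2.53% of all promoters and in 1 carrier, SLC25A11, whose RNA fell. The NRF1 motif, whose match on the opposite strand is the second run of capitals in SLC25A11, was in 8.58% of all and in 4 carriers, of which SLC25A11 fell and SLC25A31, SLC25A51 and SLC25A52 did not pass. CACGTG, the E-box of MYC and its relatives, was in 8.88% of all and in 7 carriers, of which SLC25A13 fell and 6 did not pass. The ETS motif CCGGAAGT was in 6.19% of all and in 3 carriers, SLC25A24, which fell, and SLC25A46 and SLC25A17, which did not pass. TCACNCCAC, a form of the SREBP element, was in 1.17% of all and in SLC25A40, and CAAGGTCA, the NR5A1 motif, was in 1.03% of all and in 0 of 40 carriers. None of the 6 was found in the promoters of the 4 carriers that rose and had a sequence here. A match is a run of letters in this window and does not show binding.

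Among uncoupling proteins and their nearest relatives, 1 of 6 was higher and 1 lower. SLC25A27 (UCP4), best known from neurons, gave 1244, 965.0 and 966.9 in DMSO and 442.3, 140.4 and 484.3 in CX-4945. All treated arrays were lower (-1.76 ± 0.38, adjusted p = 0.00445), but the treated SD of 0.996 on the log2 scale was the highest of the 47 carriers. Without replicate 2 the difference was -1.18.

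UCP3, known from skeletal muscle, was higher, from 82.3, 73.0 and 83.2 to 127.6, 137.1 and 142.7. Its groups were apart (0.77 ± 0.19, adjusted p = 0.0103), although all DMSO arrays lay below the background level. UCP2, which also exports C4 metabolites, differed by -0.27 ± 0.22, SLC25A14 (UCP5) by 0.09 ± 0.19 and SLC25A30 by -0.51 ± 0.20, none of which passed. The treated arrays of SLC25A30 (333.9 to 439.4) were all below its DMSO arrays (477.2 to 600.0), and it passed in 4 of 17 alternatives, with -0.71 once arrays were quantile normalized. UCP1, which makes heat in brown fat, was below background in both groups.

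The ADP/ATP carriers, the main route of ATP out of the matrix, had no call among the 3 members measured. A further ADP/ATP carrier, SLC25A6 (ANT3), was not measured as a member, so its part of this route is not covered. SLC25A5 (ANT2), the form typical of dividing cells, gave 21330, 23770 and 21750 in DMSO and 13690, 20710 and 15310 in CX-4945. The groups did not overlap, with replicate 2 the treated array nearest to DMSO (-0.45 ± 0.16, adjusted p = 0.0653). It passed in 7 of 17 alternatives, among them leaving out CX-4945 replicate 2, where the difference was -0.62. SLC25A5 has many processed pseudogenes: of 9 such rows 4 were above background in at least 1 group, 8 had a difference below 0 and none passed, and copies this similar may share signal with the gene.

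SLC25A4 (ANT1), the heart and muscle form, differed by 0.33 ± 0.17 with overlapping groups, and SLC25A31, the testis form, was below background in both. Of 41 carrier pseudogenes measured, 2 were higher and 3 lower, where all genes gave 10.3% higher and 12.5% lower. Below background in both groups were 24 of the 41, among them the called SLC25A36P1 and SLC25A24P1. SLC25A6P2 was higher (0.90, adjusted p = 0.00938) and SLC25A15P1 lower (-1.40, adjusted p = 4.43e-04), and the parent gene of neither was measured as a member.

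SLC25A20, which carries acylcarnitines into the matrix for fatty acid oxidation, was lower, from 493.2, 634.6 and 319.5 to 217.0, 240.6 and 194.7. The groups did not overlap (-1.10 ± 0.25, adjusted p = 0.00603), and the DMSO arrays varied more than the treated ones (SD 0.50 and 0.15). SLC25A48, linked to choline import, was below background in both groups. Of the glutathione carriers, SLC25A40 was lower by -0.53 ± 0.17 (adjusted p = 0.0422), a call lost in 8 of 17 alternatives, among them those without any one of the DMSO replicates or without CX-4945 replicate 3. Its near relative SLC25A39 differed by 0.11 ± 0.24.

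The mitoferrins, which import iron, did not pass, with -0.38 ± 0.23 for SLC25A28 and -0.05 ± 0.21 for SLC25A37. Among carriers of other amino acids, SLC25A29, which moves basic amino acids, was lower (-0.82 ± 0.21, adjusted p = 0.0118), but below background in both groups, and the call was lost without DMSO replicate 1. The glycine carrier of heme synthesis, SLC25A38, differed by 0.34 ± 0.18 and the branched-chain amino acid carrier SLC25A44 by -0.04 ± 0.19, and neither passed. SLC25A2, a second ornithine carrier, was below background.

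Of 7 members without a settled substrate, 3 were lower and none higher. SLC25A35 gave 258.5, 247.5 and 304.9 in DMSO and 73.8, 105.7 and 72.9 in CX-4945, with 2 treated arrays under the background level. Its groups lay apart, with a difference of -1.70 ± 0.22 (adjusted p = 9.19e-05). SLC25A43 gave 156.4, 185.5 and 128.2 in DMSO and 85.0, 61.2 and 76.7 in CX-4945, also ending at background (-1.07 ± 0.22, adjusted p = 0.00323). SLC25A53 was below background in both groups (-0.97 ± 0.22, adjusted p = 0.00720). SLC25A46, which takes part in mitochondrial fission and lipid traffic, differed by -0.35 ± 0.15 (adjusted p = 0.129) with no overlap. SLC25A34, SLC25A45 and SLC25A47 differed by -0.02, -0.51 and 0.05 and did not pass.

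The 28 carriers that did not pass are not shown to be equal between groups. Among the 21 of them above background in at least 1 group, the farthest bound of a 95% interval was 1.03 from 0 on the log2 scale. The SD over replicates was larger in CX-4945 than in DMSO for 30 of 47 carriers, with medians of 0.25 and 0.16. Exact permutation of 3 against 3 arrays cannot give a two-sided p below 0.1 for any single gene.

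Related carriers could be compared within arrays, as the difference between the log2 values of 2 paralogues, which tests whether they changed unequally. Of 14 pairs listed, 11 had both members measured. In 5 pairs the 6 differences did not overlap between groups, and the 95% interval of the unequal change left out 0. How often pairs of other genes separate in this way was not tested. SLC25A24 and SLC25A25 changed unequally by -2.11 ± 0.39 and SLC25A23 and SLC25A24 by -1.50 ± 0.44. The size of the latter rests on treated SLC25A23 values near background. UCP2 and UCP3 differed in change by -1.05 ± 0.20, where every DMSO array of UCP3 was below background, so that the size rests on values at that level. SLC25A12 and SLC25A13 changed unequally by -0.85 ± 0.26, and SLC25A14 and SLC25A30 by 0.61 ± 0.20. Each of these gave p = 0.1 by the exact permutation test, the smallest it allows, and 0.22 after adjustment over the 11 pairs, so that none could pass. The order of the first 2 pairs depends on the choices made: SLC25A24 against SLC25A25 came to -1.49 with the mean of both SLC25A25 rows, beside -1.50 for SLC25A23 against SLC25A24, and without CX-4945 replicate 2 they came to -1.81 and -1.88. The other 6 pairs overlapped; among them the interval ran from -0.44 to 0.41 for SLC25A51 and SLC25A52 and from -1.48 to 0.82 for the mitoferrins.

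**Figure D3:**
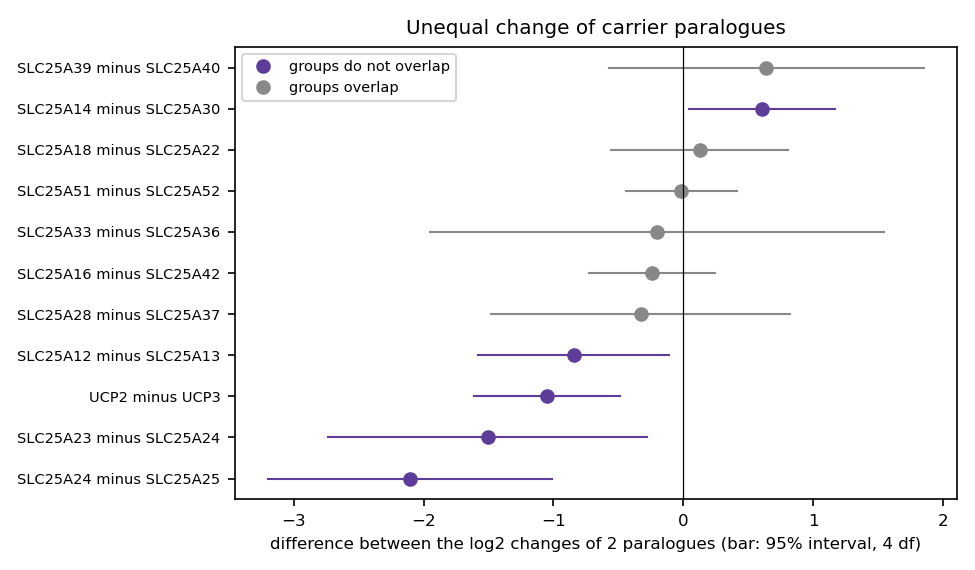
Difference between the log2 changes of 2 paralogous carriers in each of 11 pairs, first named minus second named. Bars are 95% intervals from the spread of the 6 within-array differences; in the 5 purple pairs the groups do not overlap, among them SLC25A24 and SLC25A25 at -2.11 on their brightest rows (-1.49 with the mean of rows).

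Enzymes and proteins that work with the carriers were taken as 6 lists, with 57 of 62 genes measured. Of these 10 were higher and 27 lower. Of 8 partners of the malate-aspartate shuttle and of citrate export, 5 were lower and 1 higher, with a median difference of -0.83. ATP-citrate lyase ACLY, which cleaves the citrate exported by SLC25A1, fell from 11920, 14070 and 9775 to 2149, 3490 and 2632 (-2.13 ± 0.20). Malic enzyme ME1, which makes NADPH from cytosolic malate, fell by 1.82 on the log2 scale, and cytosolic malate dehydrogenase MDH1 by 1.40. The cytosolic aspartate aminotransferase GOT1 went the other way, from 20440, 20200 and 20510 to 43130, 55490 and 43400 (1.21 ± 0.13, adjusted p = 2.65e-05). Its groups were far apart, while the SLC25A12 and SLC25A13 carriers of the same shuttle were lower.

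Of 8 partners of folate and S-adenosylmethionine transport 6 were higher and 1 lower, with a median of 0.87. MTHFD2, the matrix methylene-tetrahydrofolate dehydrogenase, rose from 6325, 6207 and 6407 to 51630, 67870 and 53850 (3.18 ± 0.14). MTHFD1L, the matrix formate-tetrahydrofolate ligase, rose by 1.57 ± 0.17 and SHMT2, the matrix serine hydroxymethyltransferase, by 0.80 ± 0.13. FPGS, which adds glutamates that hold folate in the cell and the matrix, fell by 1.65 on the log2 scale. These named partners are folate enzymes. Of the enzymes of S-adenosylmethionine in the list, MAT2A rose by 0.33 ± 0.10, and GNMT (0.94 ± 0.21) was below background in both groups. The folate carrier SLC25A32 and the S-adenosylmethionine carrier SLC25A26 were both among the 5 carriers that rose.

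Of 5 carnitine partners 3 were lower and none higher. Carnitine acetyltransferase CRAT differed by -2.22 ± 0.22, the acyl-CoA dehydrogenase ACADVL was lower with an interval from -1.43 to -0.58, and CPT2, which releases the acyl groups that SLC25A20 delivers, differed by -0.95. Of 8 partners in heme and iron-sulfur cluster synthesis 4 were lower and none higher, with TMEM14C, a porphyrin transport protein, at -2.67 ± 0.17 and the cysteine desulfurase NFS1 at -2.37 ± 0.21. The heme enzymes CPOX (-1.24) and PPOX (-0.66) were also lower, whereas the iron carriers SLC25A28 and SLC25A37 did not pass.

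**Figure D4:**
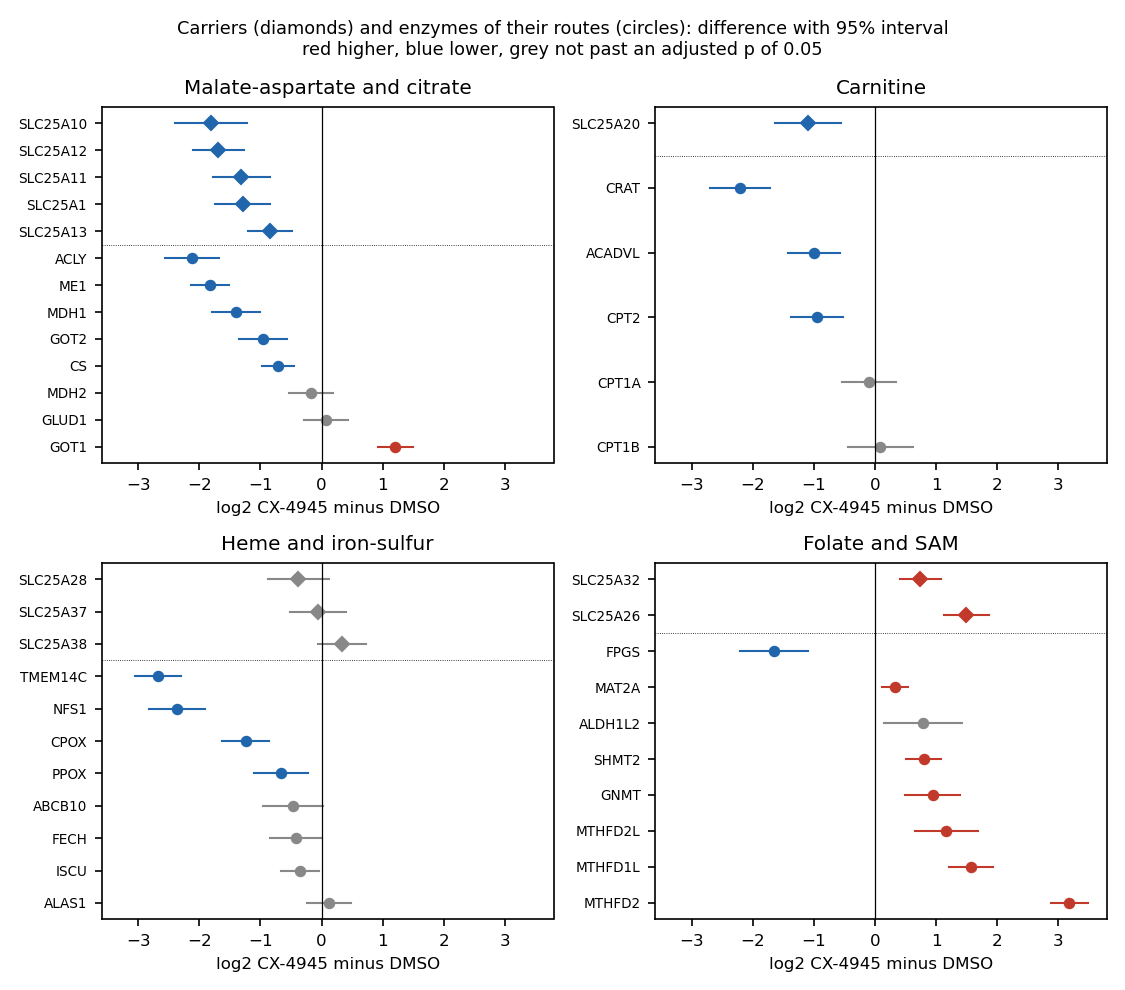
Log2 difference between CX-4945 and DMSO for carriers (diamonds, above the dotted line) and enzymes of the same route (circles), with 95% intervals. Carriers and most enzymes lie left of 0 in the malate-aspartate and citrate panel, with GOT1 at 1.21 and GLUD1 at 0.07 right of it, and they lie right of 0 in the folate and S-adenosylmethionine panel, except FPGS at -1.65.

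Of 13 genes of the machinery that imports carriers and inserts them into the inner membrane, 3 were higher and 3 lower, with a median of 0.08. The insertion channel TIMM22 was higher by 0.69 ± 0.14 and the outer membrane receptor TOMM20 by 0.69 ± 0.15, whereas the small chaperone TIMM8B (-0.92 ± 0.17) and AGK, a subunit of the TIM22 complex (-0.70 ± 0.15), were lower. Of 15 other carriers and channels of the mitochondrial membranes, 11 were lower and none higher, with a median of -0.65. Both subunits of the pyruvate carrier were lower, MPC1 by -1.19 ± 0.17 and MPC2 by -1.12 ± 0.16. The outer membrane channel VDAC3 (-1.03 ± 0.12) and MTCH2, a distant relative of the SLC25 carriers that inserts proteins into the outer membrane (-1.05 ± 0.13), were lower as well. The lists are described by these counts and medians only. Over all lists 54 of 57 genes were above background in at least 1 group, 10 of 57 were higher (17.5%) and 27 lower (47.4%), beside 17.5% higher and 29.9% lower among protein-coding genes above background.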

How the data were processed

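The 6 arrays were grouped by sample title into DMSO and CX-4945, 3 each. RNA was labelled with a whole-transcript kit, per the labels' protocols. The submitters' processing notes name Affymetrix Expression Console; its version, normalization and genome build are not stated there. The authors deposited intensities on a linear scale, taken as normalized between arrays although this is not stated. Array medians do not settle it, because every treated median (45.8 to 46.5) lay above every DMSO median (40.7 to 43.1). An unknown summarization can compress or stretch differences. Scan batches could not be tested.

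Intensities were log2-transformed without pseudocount. Of 135750 rows 37295 were named, 36176 with 1 symbol and 1119 with several, and the brightest row stood for each of 33616 genes (3 of 47 carriers had several). The groups were set against each other with limma 3.58.1 (lmFit, eBayes with trend; R 4.3.3), using two-sided p-values and the Benjamini-Hochberg method across all genes, a fit tested on simulated data. Paralogues were compared by exact permutation. The number of arrays limits the precision. Deviations of same-numbered replicates correlated at 0.13, 0.16 and -0.01, and those of differently numbered ones at -0.23 to 0.11. These values do not settle whether the numbers pair samples, so a replicate block was run as an alternative.

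Members, lists, pairs, motifs, background level and tests were chosen with earlier results of these data known. All carriers are named, with every array for those called with at least a 2-fold difference. Of each partner list up to 4 called members with the smallest adjusted p are named, and GLUD1, MAT2A and GNMT besides. Alternatives were 2 scalings, no trend, no moderation, 2 filters on dim genes, averaged rows, a test over every row, a replicate block, array weights, treat against a fold of 1.2, and leaving out each array. Plots used matplotlib 3.10.9.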

Additional observations from a re-analysis of the deposited data

How the results depend on the processing

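In 17 alternatives no carrier that was called changed direction, and 7 of the 19 called carriers passed in every alternative: SLC25A1, SLC25A12, SLC25A13, SLC25A23, SLC25A26, SLC25A32 and SLC25A35. The other 12 lost the call at least once, and 5 that were not called passed at least once (SLC25A2, SLC25A5, SLC25A30, SLC25A36 and SLC25A46). Without moderation of the variance, 3 carriers were higher and 5 lower, 15 partner genes were lower and 4259 genes were called in all, compared with 5, 14, 27 and 7665. With treat against a fold of 1.2, which asks for a larger difference by construction, 3 carriers were higher and 5005 genes were called. Leaving out 1 array gave 4 to 5 carriers higher and 11 to 14 lower. With the replicate number as a block, 5 carriers were higher and 15 lower. The sign changed in 32 of 779 combinations of a carrier and an alternative, all for carriers that passed neither way. The 3 arrays per group limit the precision, and of 10 carriers below background in both groups 3 were called, at levels where intensity is hard to tell from background.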
